A study of Mus musculus with 30 samples.

Results

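The 9 genes described here encode adrenergic receptors and the steps of cyclic AMP signalling that follow them in the heart. They are the receptors Adrb1, Adra1a and Adra1b, the receptor kinase Grk5, the adenylyl cyclases Adcy5 and Adcy6, the phosphodiesterases Pde3a and Pde4d, and the protein kinase A subunit Prkar1a. They were chosen by name, with earlier results of these data known, and are 9 of the 55487 genes in the count table. All 9 passed the filter on low counts in both cohorts of mice. RNA was counted in 30 libraries from mouse hearts collected 8 weeks after transverse aortic constriction (TAC) or after sham surgery. In TAC a clip narrows the aorta and raises the pressure the heart works against. In the floxed cohort, FF_sham and FF_TAC were hearts with the genotype CPT1a floxed, and KO_sham and KO_TAC were hearts labelled as a cardiac specific CPT1a knockout, with 4 libraries in each group. Cpt1a encodes the enzyme that lets long-chain fatty acids into mitochondria. In the AAV9 cohort, C57Bl/6 mice received saline (PBS_sham and PBS_TAC, 3 libraries each) or the viral vector AAV9.Cpt1a (AAV_sham and AAV_TAC, 4 libraries each), which per the design text drives Cpt1a from the promoter of cardiac troponin T (cTNT). For the AAV9 cohort the labels name no engineered Cpt1a allele, whereas the controls of the floxed cohort carry the floxed allele too. The labels give neither ages nor the Cre driver of the knockout, and they name 2 clip sizes without assigning them to mice. Per the design text, the study asked what more or less Cpt1a does in a heart under pressure overload.

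Noradrenaline and adrenaline raise the rate and force of the heartbeat mainly through the beta-1 receptor. That receptor activates adenylyl cyclase through a stimulatory G protein, and the cyclic AMP made releases the catalytic subunits of protein kinase A from their regulatory subunits. Phosphodiesterases break cyclic AMP down, and receptor kinases switch stimulated receptors off. Alpha-1 receptors act through another G protein and phospholipase C, and are known for their part in cardiomyocyte growth and survival. In heart failure, desensitisation and loss of beta-1 receptors are classic findings.

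Adrb1 (ENSMUSG00000035283) lies on chromosome 19 at 56722199 to 56733113 and Grk5 (ENSMUSG00000003228) on the same chromosome at 60889749 to 61095968, both on the plus strand of GRCm38 in GENCODE release M21. Prkar1a (ENSMUSG00000020612) lies on chromosome 11 at 109649405 to 109669656, plus strand. In the same annotation Adra1a (ENSMUSG00000045875) lies on chromosome 14 at 66635251 to 66771168, plus strand, Adra1b (ENSMUSG00000050541) lies on chromosome 11 at 43774606 to 43901210, minus strand, and Adcy5 (ENSMUSG00000022840) lies on chromosome 16 at 35154877 to 35305738, plus strand. Adcy6 (ENSMUSG00000022994) lies on chromosome 15 at 98589973 to 98610076, minus strand, Pde3a (ENSMUSG00000041741) lies on chromosome 6 at 141249269 to 141507448, plus strand, and Pde4d (ENSMUSG00000021699) lies on chromosome 13 at 108449948 to 109953461, plus strand. Transcription factors of the CREB family, which protein kinase A activates, bind the cyclic AMP response element TGACGTCA and its half-site TGACG. RefSeq promoter windows (GRCm38.p6, from 250 bases before to 50 after a transcript start) were searched for both motifs on both strands, and a half-site also lies within each full element. Such windows were at hand for 6 of the 9 genes, 12 windows in all, and not for Adra1a, Adcy6 or Pde3a. The full element stood in 1.79% of all 32851 windows of that length and the half-site in 20.8%. Among the 12 windows, 2 held the full element, and these are overlapping windows of Prkar1a. A half-site stood in 4 windows, 3 of Prkar1a and 1 of Adrb1. The 3 stretches below are shown because they belong to genes on which the results turn: capitals mark the full element 49 bases before a Prkar1a start, the half-site 90 bases before the Adrb1 start, and no capitals stand in the Grk5 sequence, where neither motif was found. The stretches are Prkar1a chr11:109650889-109650918, Adrb1 chr19:56721867-56722116 and Grk5 chr19:60889499-60889748, plus strand.
Prkar1a: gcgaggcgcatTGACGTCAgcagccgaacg
Adrb1: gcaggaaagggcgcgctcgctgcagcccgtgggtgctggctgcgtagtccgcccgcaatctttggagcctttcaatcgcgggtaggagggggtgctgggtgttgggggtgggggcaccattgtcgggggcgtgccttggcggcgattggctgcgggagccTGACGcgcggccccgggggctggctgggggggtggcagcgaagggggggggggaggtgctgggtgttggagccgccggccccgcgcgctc
Grk5: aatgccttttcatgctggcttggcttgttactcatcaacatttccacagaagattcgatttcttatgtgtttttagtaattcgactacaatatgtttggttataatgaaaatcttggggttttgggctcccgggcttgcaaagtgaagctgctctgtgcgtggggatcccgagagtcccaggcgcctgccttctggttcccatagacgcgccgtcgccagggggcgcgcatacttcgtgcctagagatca
A match is a description of the sequence and not a measured binding site.

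Library totals ran from 14839758 to 22070373 counts, and the 9 genes held between 30 and 16320 counts per library, with Adra1a lowest. Several libraries stood apart. Summed haemoglobin transcripts, which come from red blood cells left in the tissue, were between 1.40 and 51.1 counts per 1000000 (CPM) in 7 libraries and between 293.9 and 943.5 CPM in the other 23. The 7 were all 4 of KO_TAC, FF_TAC 2 and 3, and the library labelled KO_sham 2. Cpt1a, the targeted gene, was at 38.6 to 53.4 CPM in FF_sham, at 20.8 to 23.8 CPM in KO_sham 1, 3 and 4, and at 11.3 to 19.7 CPM in KO_TAC. The library labelled KO_sham 2 was at 46.8 CPM, inside the FF_sham range. The libraries labelled FF_TAC 2 and 3 were at 20.97 and 16.67 CPM, inside the range of the knockout groups. These 3 are called below the libraries at odds with their labels, for their Cpt1a levels alone, and whether any label is wrong could not be settled. FF_TAC 1 was at 49.9 CPM and FF_TAC 4 at 34.9 CPM, the latter below all FF_sham libraries, and a fall of Cpt1a with TAC was not tested. In the AAV9 cohort Cpt1a ran from 54.8 to 85.9 CPM in AAV_sham and from 43.8 to 61.5 CPM in AAV_TAC, overlapping PBS_sham (36.7 to 69.8 CPM). PBS_TAC libraries were at 39.5 to 59.0 CPM, with a median of 55.7 CPM beside 54.6 CPM in AAV_TAC. The Cpt1a transcript was thus not higher with the vector than with saline after TAC. In the AAV9 cohort PBS_sham 3 had summed markers of cardiomyocytes of 27810 CPM, against 50430 CPM or more in every other library, and the highest summed smooth muscle markers (2097 CPM). The 4 KO_TAC titles name both TAC and sham, and their genotype and treatment labels were used. No source says that libraries of a group came from separate animals, so p-values measure the spread between libraries.

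Levels per kilobase of merged exons allow the genes to be compared with one another. In FF_sham (mean ± SD, n = 4), Prkar1a stood highest at 112.4 ± 17.0 CPM per kb, followed by Adcy6 at 32.2 ± 3.76 CPM per kb. Adcy5 (13.2 ± 0.439) and Adra1b (12.8 ± 2.93 CPM per kb) lay close together, and Adrb1 was at 8.25 ± 0.966 CPM per kb. Pde3a (6.28 ± 0.761), Grk5 (5.93 ± 1.30), Adra1a (1.46 ± 0.278) and Pde4d (1.42 ± 0.150 CPM per kb) were lower. Among alpha-1 receptors the Adra1b transcript was therefore the more abundant, and among the cyclases Adcy6.

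**Figure D1:**
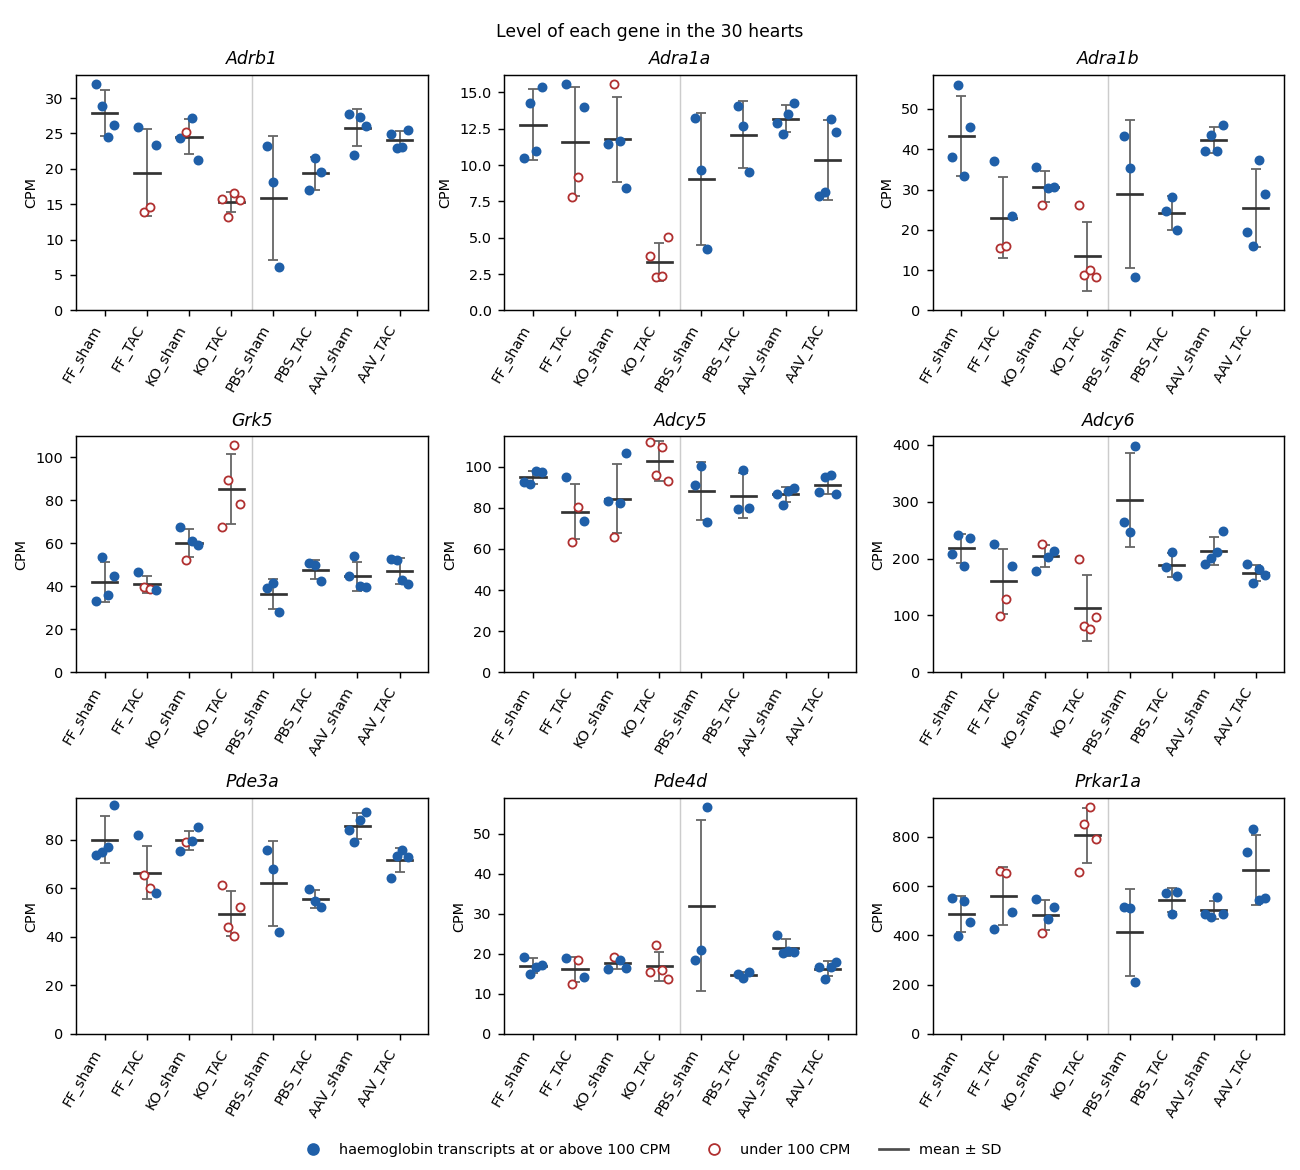
Levels of the 9 genes in each of the 30 libraries, in CPM on a linear axis starting at 0, with the mean ± SD of each group. Red open circles are the 7 libraries with summed haemoglobin transcripts under 100 CPM, blue filled circles the other 23. KO_TAC had the lowest mean for Adrb1, Adra1a, Adra1b, Adcy6 and Pde3a and the highest mean for Grk5, Adcy5 and Prkar1a.

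Knockout hearts after TAC differed from knockout hearts after sham surgery in 7 of the 9 genes. The 3 receptors, Adcy6 and Pde3a fell, and Grk5 and Prkar1a rose. Adra1a changed most, to 0.289 of its level in KO_sham, and Prkar1a was 1.68-fold higher. The test was edgeR's quasi-likelihood test over 15596 genes, and a gene counted as called where its p, adjusted by the Benjamini-Hochberg method, was under 0.05. Of all genes tested, 25.8% were called in this comparison, 14.3% higher and 11.5% lower, and 40.6% had a raw p, before adjustment, under 0.05. Of the 9 genes, 2 were called higher and 5 lower, and their median log2 fold change was -0.67 against 0.02 over all genes. The 9 were chosen with earlier results of these data known, so these shares are descriptions and no test of the family. KO_TAC and KO_sham libraries did not overlap for 1 gene that was higher and 4 that were lower, and 10.4% and 12.6% of all genes separated in these directions. All KO_TAC libraries but only 1 KO_sham library were low in haemoglobin transcripts. With a term for that split in the fit, 1 of the 9 genes stayed called, which was Adra1a (log2 fold change -1.68, adjusted p = 0.0301), and 273 of all genes. With the library labelled KO_sham 2 and the libraries labelled FF_TAC 2 and 3 left out, 5 of the 9 were called, without Grk5 (adjusted p = 0.0906) and Adcy6 (adjusted p = 0.0554). Within groups the haemoglobin term rests on these same 3 libraries, as KO_TAC was all low and FF_sham all high. With them left out KO_TAC alone was low, so the haemoglobin split and overload in knockout hearts cannot be told apart there.

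Adrb1 encodes the beta-1 adrenergic receptor. Its levels were 24.4, 25.3, 27.2 and 21.2 CPM in KO_sham and 15.7, 13.2, 16.5 and 15.7 CPM in KO_TAC. Every KO_TAC library lay below every KO_sham library. The log2 fold change was -0.67 (SE 0.178, adjusted p = 0.0154, edgeR), and it was -0.38 (adjusted p = 0.271) with the haemoglobin term. FF_sham libraries were at 32.0, 28.8, 24.5 and 26.2 CPM, and FF_TAC libraries at 26.0, 13.9, 14.6 and 23.4 CPM. The FF_TAC libraries split into a pair near the sham level and a pair at the KO_TAC level, and the low pair, FF_TAC 2 and 3, is the pair with low haemoglobin transcripts. FF_TAC against FF_sham gave a log2 fold change of -0.53 (SE 0.177, adjusted p = 0.35), and -0.18 (adjusted p = 0.838) among libraries with high haemoglobin transcripts. KO_TAC against FF_TAC gave -0.33 (adjusted p = 0.224), -0.16 (adjusted p = 0.585) without FF_TAC 1 and -0.08 (adjusted p = 0.812) with the haemoglobin term. Among the 6 libraries of these groups with low haemoglobin transcripts the sign turned, at 0.11 (adjusted p = 0.864).

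Adra1a encodes the alpha-1A receptor and was the gene of the 9 with the largest change. It was at 11.5, 15.6, 11.7 and 8.44 CPM in KO_sham and at 3.71, 2.27, 2.37 and 5.06 CPM in KO_TAC. FF_sham libraries held 10.5, 14.3, 10.96 and 15.4 CPM, and FF_TAC libraries 15.6, 7.78, 9.16 and 14 CPM. The highest KO_TAC library thus lay below the lowest library of each of the other 3 floxed groups. The log2 fold change was -1.79 (SE 0.288, 95% interval -2.41 to -1.18, adjusted p = 0.0016) against KO_sham and -1.76 (SE 0.288, interval -2.38 to -1.15, adjusted p = 0.00179) against FF_TAC. Between the libraries low in haemoglobin transcripts, KO_TAC and FF_TAC 2 and 3 still did not overlap, with a log2 fold change of -1.33 that did not pass the test (adjusted p = 0.335). The low-haemoglobin library labelled KO_sham 2, at 15.6 CPM, was the highest of the KO_sham libraries. The difference between the TAC responses of knockout and floxed hearts, an interaction term, was -1.64 (SE 0.394, adjusted p = 0.109). It passed in DESeq2 (-1.64, adjusted p = 0.0075). It also passed without the 3 libraries at odds with their labels (-1.83, adjusted p = 0.0149), a fit in which KO_TAC alone was low in haemoglobin transcripts. Of 16 fits with 1 library left out it passed in 1, without KO_TAC 4 (-1.91, adjusted p = 0.0406), and adjusted p ran up to 0.244 in the others. With the haemoglobin term no gene of the whole table passed for the interaction.

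Adra1b encodes the alpha-1B receptor. KO_sham libraries were at 35.5, 26.3, 30.5 and 30.6 CPM, and KO_TAC libraries at 26.2, 8.84, 10.1 and 8.37 CPM. KO_TAC 1 lay just under the lowest KO_sham library, and the other 3 KO_TAC libraries lay far lower. The log2 fold change was -1.18 (SE 0.352, adjusted p = 0.0255). The call was lost when any of KO_sham 1, 3 and 4 or KO_TAC 2, 3 and 4 was left out (adjusted p up to 0.0817), and without KO_TAC 1 the value was -1.75 (adjusted p = 0.000716). With the haemoglobin term it was -0.68 (adjusted p = 0.339). In FF_sham the gene was at 38.1, 56.0, 33.2 and 45.6 CPM, and in FF_TAC at 37.2, 15.4, 16.0 and 23.5 CPM. The 2 lowest FF_TAC libraries were again FF_TAC 2 and 3, and the log2 fold change of -0.92 (SE 0.347, adjusted p = 0.381) did not pass. It was -0.52 (adjusted p = 0.737) among libraries with high haemoglobin transcripts and -0.53 (adjusted p = 1) without the 3 libraries at odds with their labels. KO_TAC against FF_TAC was -0.75 (adjusted p = 0.159), and it ran from -1.33 (adjusted p = 0.0048) without KO_TAC 1 to -0.42 (adjusted p = 0.468) without FF_TAC 1. It was -0.35 (adjusted p = 0.598) with the haemoglobin term and -1.16 (adjusted p = 0.0512) without the 3 libraries at odds with their labels.

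Grk5 encodes a G protein-coupled receptor kinase that phosphorylates stimulated receptors and is abundant in the heart. It was at 67.6, 89.3, 105.8 and 78.4 CPM in KO_TAC and at 46.6, 39.8, 38.5 and 38.4 CPM in FF_TAC. The lowest KO_TAC library lay above the highest FF_TAC library, and Grk5 was 2.12-fold higher (log2 1.09, SE 0.158, 95% interval 0.75 to 1.42, adjusted p = 0.000991). The value was 1.18 (adjusted p = 0.00349) with the haemoglobin term and 1.13 (adjusted p = 0.261) among the 4 KO_TAC and 2 FF_TAC libraries low in haemoglobin transcripts. KO_sham libraries were at 67.6, 52.2, 61.0 and 59.4 CPM, so that KO_sham 1 lay within the KO_TAC range. KO_TAC against KO_sham was 0.52 (SE 0.157, adjusted p = 0.0271), and the call was lost without any of KO_sham 2, 3 or 4 or KO_TAC 2 or 3 (adjusted p up to 0.107), and with no filter on low counts (adjusted p = 0.0518). With the haemoglobin term the call was lost at a larger fold change, 0.66 (adjusted p = 0.104). FF_sham libraries were at 33.1, 53.3, 35.8 and 45.0 CPM. Only FF_sham 2 exceeded the lowest KO_sham library, yet KO_sham against FF_sham did not pass (log2 0.52, SE 0.157, unadjusted p = 0.00474, adjusted p = 0.84).

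Adcy5 and Adcy6 encode the main adenylyl cyclases of cardiomyocytes, which make cyclic AMP and are inhibited by calcium. Adcy6 was at 179, 225, 203 and 213 CPM in KO_sham and at 200.0, 81.5, 75.6 and 97.2 CPM in KO_TAC. KO_TAC 1 lay within the KO_sham range, and the other 3 KO_TAC libraries lay well below it. The log2 fold change was -0.84 (SE 0.29, adjusted p = 0.0446). It was called in 1 of the 8 fits that left out a library, the one without KO_TAC 1 (-1.27, adjusted p = 0.00126), and it was -0.57 (adjusted p = 0.354) with the haemoglobin term. FF_sham libraries held 209, 241, 187 and 236 CPM, and FF_TAC libraries 226, 99.5, 128 and 187 CPM, with FF_TAC 2 and 3 lowest. GENCODE places an antisense transcript over 605 bases of Adcy6 exons, which had 0 counts in all libraries.

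Adcy5 was not lower in KO_TAC. It was at 112.1, 96.2, 110 and 93.0 CPM there, at 83.5, 66.0, 82.2 and 106.6 CPM in KO_sham, at 95.2, 63.6, 80.5 and 73.6 CPM in FF_TAC and at 92.8, 91.8, 98.0 and 97.4 CPM in FF_sham. The ranges overlapped, with KO_TAC toward the upper end. KO_TAC against FF_TAC was 0.42 (SE 0.143, adjusted p = 0.0619) and KO_TAC against KO_sham 0.29 (SE 0.143, adjusted p = 0.137). The first was called with the haemoglobin term (0.59, adjusted p = 0.0218), in DESeq2 (adjusted p = 0.0316) and without FF_TAC 1 (0.52, adjusted p = 0.0384), and the second without KO_sham 4 (0.42, adjusted p = 0.0485). Without the 3 libraries at odds with their labels both were smaller, at 0.29 (adjusted p = 0.168) and 0.18 (adjusted p = 0.323). The second was also 0.18 (adjusted p = 0.363) without KO_sham 2, and 0.55 (adjusted p = 0.0896) with the haemoglobin term.

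The ratio of Adcy5 to Adcy6 per kilobase sets the 2 cyclases side by side within a library. It was 0.529, 1.11, 1.37 and 0.902 in KO_TAC. In the other 26 libraries it ran from 0.173 in PBS_sham 3 to 0.603 in FF_TAC 2. FF_TAC 2 and 3 had the highest ratios outside KO_TAC (0.603 and 0.592), whereas the low-haemoglobin library labelled KO_sham 2 had 0.277, the lowest of the floxed cohort. In 2 KO_TAC libraries the Adcy5 level per kilobase exceeded that of Adcy6. The ratio of Adra1a to Adra1b was 0.0547, 0.0994, 0.0909 and 0.234 in KO_TAC, inside and below the range of the other libraries (0.0990 to 0.231), apart from KO_TAC 4 just above it. These ratios are descriptions, with no test.

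**Figure D2:**
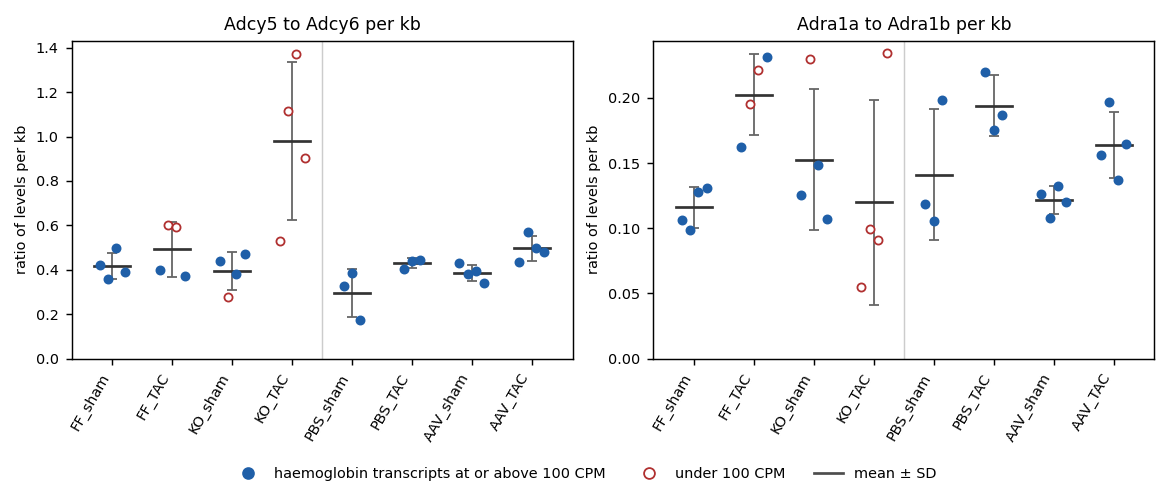
Ratios of levels per kilobase within each library, Adcy5 to Adcy6 on the left and Adra1a to Adra1b on the right, by group, with the mean ± SD. Red open circles are the 7 libraries with haemoglobin transcripts under 100 CPM. For the cyclases 3 of 4 KO_TAC libraries stand above all others, at 0.902 to 1.37.

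Phosphodiesterase 3A, encoded by Pde3a, breaks down cyclic AMP and is inhibited by cyclic GMP and by the drug milrinone. It was at 75.5, 79.0, 79.3 and 85.0 CPM in KO_sham and at 61.2, 44.1, 40.2 and 52.2 CPM in KO_TAC. The groups did not overlap, and the log2 fold change was -0.68 (SE 0.141, 95% interval -0.98 to -0.38, adjusted p = 0.00514). It stayed called without any single library and without the 3 libraries at odds with their labels (-0.69, adjusted p = 0.0101), and was -0.60 (adjusted p = 0.0927) with the haemoglobin term. FF_sham was at 73.6, 74.7, 77.1 and 94.3 CPM and FF_TAC at 81.8, 65.5, 59.9 and 58.1 CPM. FF_TAC 1 lay above 3 FF_sham libraries and the other FF_TAC libraries below all 4, and the log2 fold change of -0.28 did not pass (SE 0.141, adjusted p = 0.467). KO_TAC against FF_TAC was -0.40 (adjusted p = 0.0704), and passed in DESeq2 (adjusted p = 0.0403). Of the 8 fits with a library left out it passed in 1, without KO_TAC 1 (-0.53, adjusted p = 0.013). It was smallest without FF_TAC 1, at -0.28, and adjusted p ran up to 0.213 in these fits. An antisense transcript shares 741 exon bases with Pde3a and had 674 counts over all libraries against 37503 for Pde3a, and reads of the 2 cannot be told apart where the strand setting of the counting is not known.

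Pde4d encodes a phosphodiesterase specific for cyclic AMP that is found with the beta receptors and the ryanodine receptor. It was at 16.2, 19.3, 18.5 and 16.4 CPM in KO_sham and at 15.5, 22.1, 16.0 and 13.7 CPM in KO_TAC. FF_sham libraries were at 14.96 to 19.3 CPM and FF_TAC libraries at 12.6 to 19.02 CPM. All 4 floxed groups overlapped. The 95% interval of the log2 difference between KO_TAC and KO_sham ran from -0.39 to 0.28.

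Prkar1a encodes the type I alpha regulatory subunit, which holds the catalytic subunits of protein kinase A inactive until cyclic AMP binds. It was at 548, 408, 465 and 514 CPM in KO_sham and at 656, 854, 922 and 793 CPM in KO_TAC. All KO_TAC libraries lay above all KO_sham libraries, with a log2 fold change of 0.75 (SE 0.159, 95% interval 0.41 to 1.09, adjusted p = 0.00563). It stayed called without any single library and was 0.61 (adjusted p = 0.146) with the haemoglobin term. FF_sham was at 551, 396, 540 and 456 CPM and FF_TAC at 427, 663, 654 and 495 CPM, so that FF_TAC 2 and 3 were the high pair. KO_TAC against FF_TAC was 0.55 (SE 0.159, adjusted p = 0.0313). That call was lost without any of FF_TAC 1 or 4 or KO_TAC 2 or 3 (adjusted p up to 0.106), with the haemoglobin term (0.48, adjusted p = 0.12), with no filter on low counts (adjusted p = 0.0552) and in a fit of all 30 libraries (0.53, adjusted p = 0.0862).

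Between the TAC groups of the floxed cohort, 3 of the 9 genes differed. Adra1a was lower in KO_TAC than in FF_TAC, and Grk5 and Prkar1a were higher. Of all genes tested, 14.3% were called, 7.53% higher and 6.80% lower, and 31.1% had a raw p under 0.05, as did 6 of the 9. The libraries did not overlap for 1 gene that was higher (Grk5) and 1 that was lower (Adra1a), in which directions 6.13% and 7.59% of all genes separated. The count was 5 in DESeq2, 5 with a covariate for the atrial gene Myl7, 6 without KO_TAC 1 and 4 without the 3 libraries at odds with their labels, where Adrb1 (-0.69, adjusted p = 0.00377) was called too. There Adra1a was at -2.12 (adjusted p = 0.000307), Grk5 at 1.01 (adjusted p = 0.00564) and Prkar1a at 0.81 (adjusted p = 0.00534). It was 0 among the 6 libraries low in haemoglobin transcripts, where edgeR called no gene of the whole table, 1629 genes had a raw p under 0.05, and Prkar1a was at 0.30 (adjusted p = 0.671). Over all genes the number called rose too, from 2235 to 3058 in DESeq2 and to 3845 without KO_TAC 1. It also rose without the 3 libraries at odds with their labels. The counts of the 9 genes were not tested against these.

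In floxed controls TAC changed none of the 9 genes beyond the test. The largest differences were lower levels of Adra1b and Adrb1, given above. Of all genes, 0% were called in this comparison by edgeR and 11.1% had a raw p under 0.05, as did 2 of the 9, Adrb1 and Adra1b, and DESeq2 called 0 of the 9. KO_sham against FF_sham gave 0 of 9 as well, with 0% of all genes called. The raw p was under 0.05 for 5.22% of genes and for 1 of the 9, Grk5, and DESeq2 called 0. The interaction of knockout and TAC called 0 of 9 in edgeR and 1 in DESeq2, with 0.0449% of all genes called. The raw p was under 0.05 for 13.1% of genes and for 4 of the 9, which were Adra1a, Grk5 (0.57, adjusted p = 0.287), Adcy5 (0.59, adjusted p = 0.226, and 0.36 without the 3 libraries) and Prkar1a (0.56, adjusted p = 0.298). KO_TAC is a part of 3 of these comparisons, so they share libraries.

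**Figure D3:**
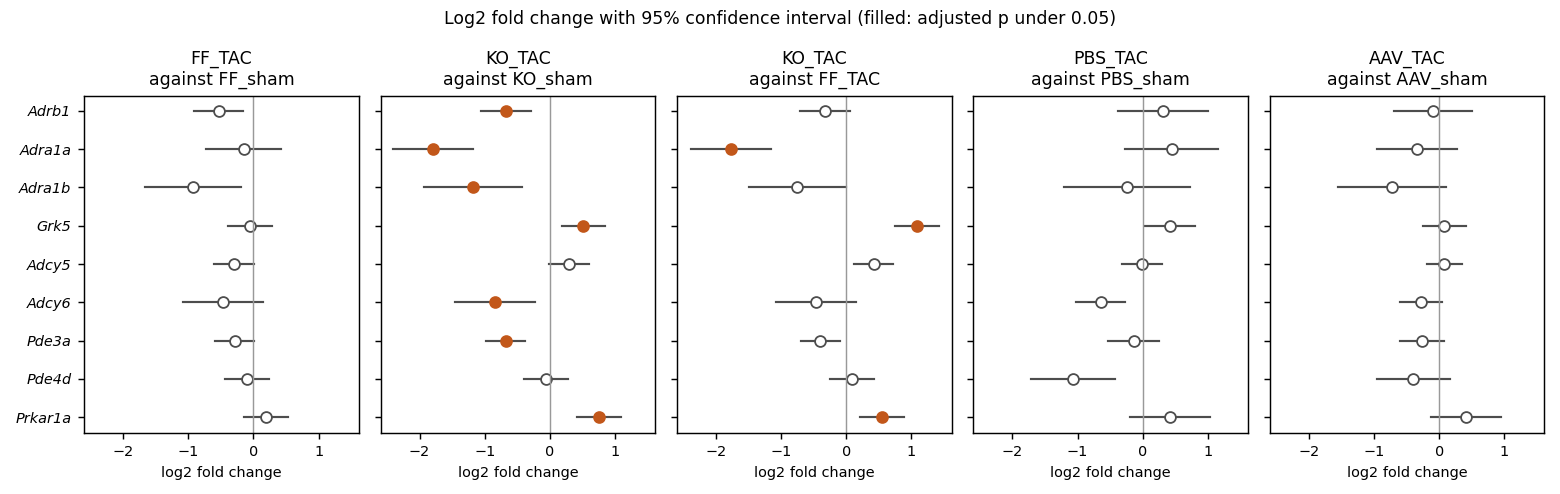
Log2 fold changes of the 9 genes with 95% confidence intervals in 5 comparisons, in log2 units. Filled orange points passed the test at an adjusted p under 0.05 and open points did not. The filled points are 7 for KO_TAC against KO_sham and 3 for KO_TAC against FF_TAC.

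In C57Bl/6 hearts given saline, TAC changed none of the 9 genes beyond the test. Adcy6 was at 265, 246 and 398 CPM in PBS_sham and at 186, 211 and 170 CPM in PBS_TAC. Pde4d was at 18.6, 20.96 and 56.5 CPM in PBS_sham and at 15.1, 13.97 and 15.4 CPM in PBS_TAC. The groups did not overlap for either gene, and PBS_sham 3 lay farthest from PBS_TAC in both. The log2 fold changes were -0.65 (SE 0.175, adjusted p = 0.145) for Adcy6 and -1.07 (SE 0.3, adjusted p = 0.15) for Pde4d, and without PBS_sham 3 they were -0.43 (adjusted p = 0.152) and -0.42 (adjusted p = 0.162). Grk5 was at 39.2, 41.6 and 28.2 CPM in PBS_sham and at 50.8, 49.7 and 42.6 CPM in PBS_TAC (log2 0.41, SE 0.179, adjusted p = 0.247; 0.24 without PBS_sham 3). Of all 15745 genes tested, 0.0318% were called and 18.5% had a raw p under 0.05, as did these 3 of the 9. The PBS groups did not overlap for 1 gene that was higher and 2 that were lower, and 7.29% and 7.18% of all genes separated in those directions. DESeq2 called 2 of the 9, Adcy6 (adjusted p = 0.0167) and Pde4d (adjusted p = 0.0366), as did edgeR without PBS_sham 1 (adjusted p = 0.0376 and 0.0192).

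PBS_sham 3 also held the lowest levels of the receptors in the AAV9 cohort. Adrb1 was at 23.2, 18.1 and 6.18 CPM in the 3 PBS_sham libraries, Adra1b at 43.2, 35.4 and 8.23 CPM, and Adra1a at 13.2, 9.65 and 4.22 CPM. Prkar1a was at 515, 511 and 210 CPM. In the same library summed markers of endothelium were 1623 CPM, the highest of the 30, and those of smooth muscle 2097 CPM, beside the low cardiomyocyte sum of 27810 CPM. Their part in the levels was not tested. In bulk tissue fewer cells of a type and less RNA per cell cannot be told apart.

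In hearts given the Cpt1a vector, none of the 9 genes passed the test after TAC. Adra1b was at 39.5, 43.5, 39.5 and 46.1 CPM in AAV_sham and at 19.5, 16.0, 37.3 and 29.0 CPM in AAV_TAC, without overlap (log2 -0.73, SE 0.387, adjusted p = 0.774). Adcy6 was at 190.1, 202, 212 and 248.5 CPM in AAV_sham and at 189.9, 157, 182 and 172 CPM in AAV_TAC, separated by less than 1 CPM (log2 -0.28, SE 0.151, adjusted p = 0.775). Pde3a was at 78.8 to 91.2 CPM in AAV_sham and 64.3 to 75.5 CPM in AAV_TAC, and Pde4d at 20.2 to 24.7 and 13.7 to 18.0 CPM. These 4 genes were lower in every AAV_TAC library than in any AAV_sham library, a pattern that 5.79% of all genes showed. Of all genes 0.00635% were called and 7.05% had a raw p under 0.05, which none of the 9 had, and DESeq2 called 0.

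Within AAV_TAC the libraries fell into 2 pairs for Adra1a, Adra1b, Grk5 and Prkar1a. This split was read from the values, and the share of all genes that follow it was not counted. AAV_TAC 1 and 2 had the lower Adra1a levels (7.85 and 8.14 CPM, against 13.2 and 12.3 CPM in AAV_TAC 3 and 4). They had the lower Adra1b levels, given above, the higher Grk5 levels (52.5 and 52.2 CPM against 42.8 and 40.9 CPM) and the higher Prkar1a levels (739 and 831 CPM against 543 and 552 CPM). Adrb1 did not follow this split, at 24.9, 23.0, 23.1 and 25.4 CPM, and neither did Adcy5, Adcy6, Pde3a or Pde4d. AAV_TAC 1 and 2 had haemoglobin transcripts above the limit of 100 CPM, as did all libraries of the AAV9 cohort. The AAV_sham libraries of Prkar1a were at 488, 477, 557 and 487 CPM, so that AAV_TAC 3 lay within their range. PBS_TAC libraries were at 572, 488 and 576 CPM.

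The vector itself, compared with saline, moved none of the 9 genes beyond the test. After sham surgery Pde3a was at 83.9, 78.8, 88.2 and 91.2 CPM with the vector and 75.6, 68.0 and 42.1 CPM with saline, without overlap (log2 0.48, SE 0.172, adjusted p = 0.179). It was the 1 gene of the 9 that separated there in the higher direction, with 5.40% of all genes. Adrb1 (log2 0.71, adjusted p = 0.219) and Adcy6 (-0.48, adjusted p = 0.168) had a raw p under 0.05 besides, 3 of the 9 genes and 20.7% of all genes, while 0.0127% of all genes were called and DESeq2 called 0 of the 9. Without PBS_sham 3 these values were 0.24 for Pde3a, 0.31 for Adrb1 and -0.27 for Adcy6, and without PBS_sham 1 they were 0.66, 1.11 and -0.55, each called (adjusted p = 0.0336, 0.035 and 0.0483), as was Pde4d at -0.79 (adjusted p = 0.0461). Pde4d was -0.54 (adjusted p = 0.27) with all libraries and 0.11 without PBS_sham 3, a change of sign.

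After TAC, Adrb1 was at 24.9, 23.0, 23.1 and 25.4 CPM with the vector and at 17.0, 21.6 and 19.6 CPM with saline. Pde3a was at 64.3, 73.2, 75.5 and 72.9 CPM with the vector and at 59.5, 54.8 and 52.2 CPM with saline. Neither gene overlapped between the groups, and Pde3a had a log2 fold change of 0.36 (SE 0.172, adjusted p = 1). These were the 2 of the 9 that separated in the higher direction, with 4.33% of all genes. None of the 9 and 3.19% of all genes had a raw p under 0.05, 0.0381% of all genes were called, and DESeq2 called 0 of the 9. The interaction of vector and TAC called 0 of the 9 in edgeR and in DESeq2, with 0.00635% of all genes called, and 0 of the 9 against 6.95% of all genes had a raw p under 0.05.

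Across the 8 groups, neighbours in the order of means mostly did not differ beyond their spread. KO_TAC stood last for Adra1a (3.35 ± 1.32 CPM, SD, n = 4), 5.68 CPM below PBS_sham (9.03 ± 4.53, n = 3), whose lowest library lay inside the KO_TAC range. Of the 7 steps for each gene, 1 was free of overlap for Adra1b (AAV_sham above KO_sham), for Grk5 (KO_sham at 60.1 ± 6.34 CPM above PBS_TAC at 47.7 ± 4.45 CPM), for Adcy6 (PBS_sham above FF_sham) and for Pde4d (AAV_sham above KO_sham). None was for the other 5 genes. These orders cross 2 cohorts of different mice. The share of all genes that separate at such steps was not counted, so these steps are descriptions.

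The other genes of the pathway were taken from 9 lists, 95 genes with the 9 included, of which 91 could be tested in floxed and knockout hearts and 92 in AAV9 cohort hearts. In KO_TAC against KO_sham 27 of the 91 were called, 10 higher and 17 lower. Without the 9 genes above this was 20 of 82, or 24.4%, close to the 25.8% of all genes. Their median log2 fold change was -0.09 against 0.02 over all genes. Without the 3 libraries at odds with their labels 37 were called, 20 higher and 17 lower. The share of all genes called in that fit is not given here, so this count is no result about the pathway. With the haemoglobin term, which rests within groups on the same 3 libraries, 2 of the 91 were called, Adra1a and Pkia. All 27 kept their direction with that term. The log2 fold changes of 19 stayed within 1.5 times, among them Grk4 (0.92), Adcy9 (-1.30), Pde1b (0.97), Pde7b (-1.25) and Gnb1 (0.33). Those of 8 shrank by more, which were Adrb1, Adra1b, Adra2b (-1.60), Grk6 (-0.27), Adcy4 (0.23), Akap1 (-0.26), Akap8 (-0.52) and Creb1 (0.37). In KO_TAC against FF_TAC 14 of 91 were called, 4 higher and 10 lower, and without the 9 genes 11 of 82, or 13.4%, beside 14.3% of all genes. With the haemoglobin term 11 were called, 3 higher and 8 lower. The split was 10 higher and 12 lower in DESeq2, 10 and 15 with the Myl7 covariate and 16 and 16 without the 3 libraries. Over all genes the number called rose too, from 2235 to 3058 in DESeq2, and it also rose without the 3 libraries. In the other 8 comparisons edgeR called 0 of them, with a raw p under 0.05 for 4 (AAV_TAC against PBS_TAC) to 30 (AAV_sham against PBS_sham).

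Among the adrenergic receptors 4 of 7 tested were called lower in KO_TAC than in KO_sham and 0 higher, where 11.5% and 14.3% of all genes were called in these directions. Of the 4, 3 are among the 9 genes already described, the list was chosen with earlier results known, and it was not tested. The fourth was the alpha-2B receptor gene Adra2b, a minor transcript at 0.839 to 1.12 CPM in KO_sham and 0 to 0.395 CPM in KO_TAC, named after its values were seen. It missed the threshold in 6 of the 8 fits with a library left out (adjusted p up to 0.0808). Of 7 receptor kinases and arrestins, which bind phosphorylated receptors, Grk4 rose with Grk5 (log2 0.95, adjusted p = 0.00582; 2.08 ± 0.325 to 3.99 ± 1.002 CPM) and Grk6 fell (-0.50, adjusted p = 0.0358), though its call was not kept in 7 of the 8 fits with a library left out. Of 13 G protein subunits and regulators, the Gq subunit gene Gnaq (0.40, adjusted p = 0.0347) and the beta subunit genes Gnb1 (0.34, adjusted p = 0.0152) and Gnb2 (0.40, adjusted p = 0.0155) rose. The calls of Gnb1 and Gnb2 were lost without KO_TAC 3 (adjusted p = 0.0519 and 0.056), and that of Gnaq in 6 of the 8 fits (adjusted p up to 0.105), with the smallest value, 0.22, without KO_TAC 2. Against FF_TAC, Grk4 (0.83, adjusted p = 0.0142) and Gnb1 (0.32, adjusted p = 0.0293) were higher and Rgs5 (-0.49, adjusted p = 0.0378), a regulator of G protein signalling that is also on the pericyte list, was lower. Gnb1 lost this call in 5 and Rgs5 in 6 of the 8 fits, and Grk4 in 1 (adjusted p up to 0.109, 0.116 and 0.0576).

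Of 8 adenylyl cyclases tested, 3 fell and 1 rose in KO_TAC against KO_sham, where 11.5% and 14.3% of all genes were called in these directions. The list was not tested. Of the 3, 1 is Adcy6, already described, which lost its call in 7 of the 8 fits with a library left out. Adcy9 went from 10.4 ± 2.59 to 4.06 ± 1.68 CPM (log2 -1.34, adjusted p = 0.00693) and was also lower than in FF_TAC (-1.27, adjusted p = 0.0117). Adcy8, a calcium-stimulated cyclase, was a minor transcript at 0.786 to 1.72 CPM in KO_sham and 0.0755 to 0.361 CPM in KO_TAC. Adcy4 rose (0.69, adjusted p = 0.0207), but missed the threshold in 4 of the 8 fits with a library left out (adjusted p up to 0.0618). Of 17 phosphodiesterases, Pde4c (-1.45, adjusted p = 0.007) and Pde7b (-1.17, adjusted p = 0.00688) fell with Pde3a, and Pde1b, which calcium and calmodulin activate, rose (log2 0.995, adjusted p = 0.00907). Pde4c (-1.59, adjusted p = 0.00539) and Pde7b (-1.29, adjusted p = 0.005) were lower than in FF_TAC too.

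Pkia, which encodes an inhibitor peptide of protein kinase A, was at 155.1 to 181.6 CPM in KO_sham, 197.6 to 228.3 CPM in FF_TAC and 104.9 to 126 CPM in KO_TAC. It was lower in KO_TAC than in either group (log2 -0.59, adjusted p = 0.00185 against KO_sham; -0.86, adjusted p = 0.000317 against FF_TAC), while Prkar1a, the other gene called among the 9 subunits and inhibitors of the kinase, was higher. Of 10 anchoring proteins, which tether the kinase to places in the cell, 4 were called lower and 0 higher, with 11.5% and 14.3% of all genes called in these directions and no test of the list. Akap5, which anchors the kinase near beta receptors, went from 3.33 ± 0.870 to 0.6615 ± 0.4999 CPM (log2 -2.27, adjusted p = 0.00394), and the others were Akap8 (-0.80), Akap1 (-0.49) and Akap7 (-0.49). Akap1 lost its call in 1 of the 8 fits (adjusted p = 0.0505). Akap5 (-2.11, adjusted p = 0.00697) and Akap1 (-0.73, adjusted p = 0.00263) were lower than in FF_TAC as well.

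Of 12 other effectors of cyclic AMP, the pacemaker channel gene Hcn4 fell (-1.17, adjusted p = 0.0143) and Popdc3 (0.65, adjusted p = 0.0211) and the transcription factor gene Creb1 (0.61, adjusted p = 0.0226) rose. Hcn4 lost its call without KO_TAC 3 (adjusted p = 0.0519), Popdc3 in 4 and Creb1 in 5 of the 8 fits (adjusted p up to 0.0631 and 0.0758). Against FF_TAC, Hcn4 (-1.22, adjusted p = 0.0163) and Rapgef4 (-0.56, adjusted p = 0.022), which encodes the exchange factor Epac2, were lower, with calls lost in 2 and 3 of the 8 fits (adjusted p up to 0.0616 and 0.0652). Akap7, Popdc3 and Rapgef4 share exon bases with a transcript on the opposite strand, so their values are uncertain to that extent. Of the 8 transcripts known to respond to CREB, 0 were called in KO_TAC against KO_sham and 2 had a raw p under 0.05, and their median log2 fold change was 0.66. Against FF_TAC 0 were called, and 0 had a raw p under 0.05. The count with a raw p under 0.05 was highest for AAV_TAC against AAV_sham, at 6 of 8 with a median of -1.02, beside 7.05% of all genes, and none of the 8 passed the test there. Over the 10 comparisons the median of this list ran from -1.07 (interaction of knockout and TAC) to 1.49 (KO_sham against FF_sham). In the latter 4 of 8 had a raw p under 0.05, beside 5.22% of all genes.

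**Figure D4:**
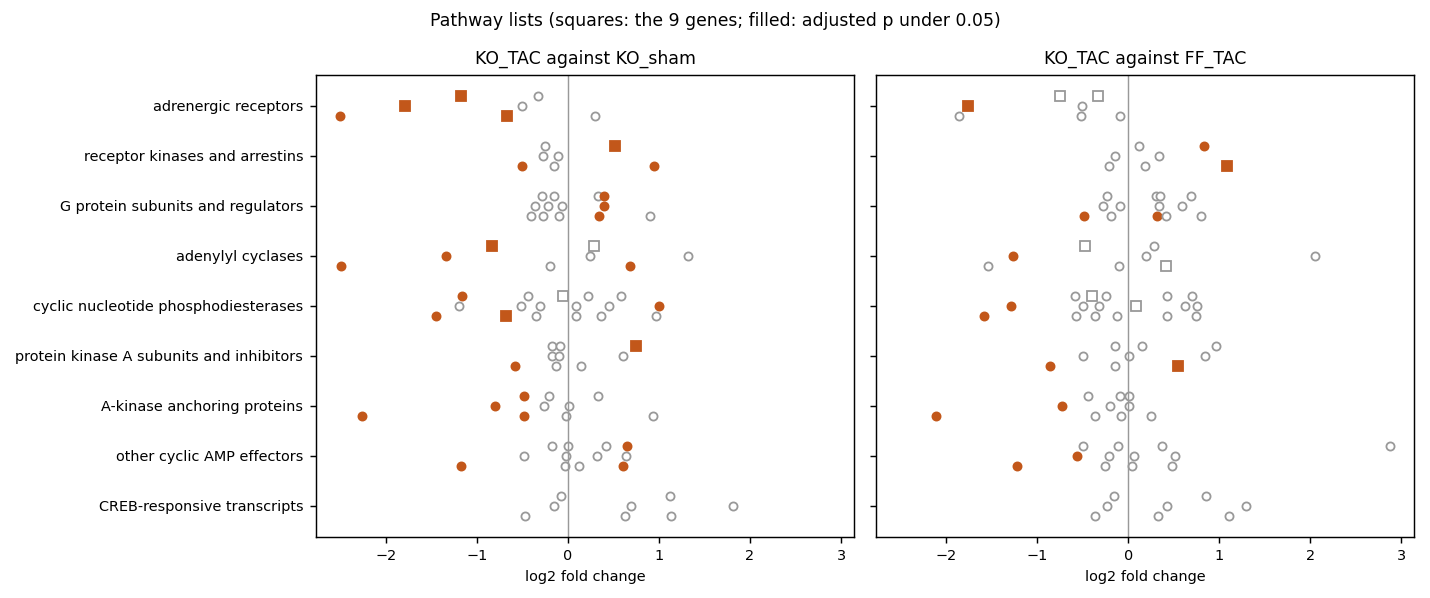
Log2 fold changes of the tested genes of the 9 pathway lists in KO_TAC against KO_sham (left) and against FF_TAC (right), in log2 units, 1 row for each list. Squares are the 9 genes described above and circles the other genes, and filled symbols passed the test at an adjusted p under 0.05. On the left 27 of the 91 genes are filled, 10 higher and 17 lower, and 20 of the 82 circles (24.4%, beside 25.8% of all genes).

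Markers of some cell types moved with KO_TAC beside these genes. The 6 fibroblast markers summed to 1712 to 1758 CPM in KO_TAC, above KO_sham (865.5 to 1211 CPM) and FF_TAC (926.2 to 1009 CPM), with 3 of 6 called higher in either comparison. Endothelial markers summed to 500.2 to 700.1 CPM in KO_TAC and 732 to 915.7 CPM in KO_sham (4 of 6 called lower), and pericyte markers to 564.5 to 898.9 and 952.6 to 1200 CPM (2 of 5 called lower). Cardiomyocyte markers summed to 50430 to 79850 CPM in KO_TAC and 61570 to 65980 CPM in KO_sham. Of these 8, 3 were called lower and 0 higher, and the median log2 fold change of the list was 0.03. Smooth muscle markers summed to 256.0 to 557.6 CPM in KO_TAC and 341.6 to 414.8 CPM in KO_sham, with 0 of 5 called. Atrial markers ran from 18.9 to 31.7 CPM in KO_TAC 2, 3 and 4 and were at 9014 CPM in KO_TAC 1. Smooth muscle (557.6 CPM) and neuron and Schwann cell markers (41.2 CPM) were also highest of KO_TAC in that library. Its Adra1b, Adcy6, Grk5, Pde3a and Prkar1a levels lay nearest to KO_sham among the KO_TAC libraries, and its Adrb1, Adra1a, Adcy5 and Pde4d levels did not. Macrophage markers summed to 236.9 to 307 CPM in KO_TAC and 203.6 to 362.9 CPM in KO_sham (0 of 6 called). They lay above FF_TAC (168.8 to 193.6 CPM), with 3 of 6 called higher. Against FF_TAC, 3 of 6 endothelial markers (755.2 to 1028 CPM there), 3 of 5 pericyte markers (905.5 to 1144 CPM) and 2 of 8 cardiomyocyte markers were called lower, beside the differences in Adra1a, Grk5 and Prkar1a. Adipocyte markers were near 0 in KO_TAC (0.0565 to 8.70 CPM), with Lep at 0. All 8 cardiomyocyte markers were detected in every group. Of all genes, 14.3% were called higher and 11.5% lower against KO_sham, and 7.53% and 6.80% against FF_TAC. The part of these cell types in the results was not tested.

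For each of the 9 genes, the 2 genes outside the lists whose log2 CPM followed it most closely over the 30 libraries were found by Pearson's r after each cohort's mean was subtracted. The candidates had a mean of at least 5 CPM. The closest followers were St6galnac6 (r = 0.91) and Zadh2 (0.90) for Adrb1, Scn4a (0.943) and Oplah (0.942) for Adra1a, and Dglucy (0.947) and Slc20a2 (0.937) for Adra1b. Grk5 was followed by Serpina3n (0.898) and P4hb (0.858), Adcy6 by Zhx3 and Abl1 (both 0.943), and Pde3a by Fgd4 (0.936) and Tmem135 (0.913). Pde4d was followed by Nrf1 (0.899) and Bptf (0.881), and Prkar1a by Ppme1 (0.948) and Ehd4 (0.947). Adcy5 had the weakest likeness, with Lrp10 at 0.744 and Sulf2 at 0.699. These correlations share libraries, their depth and the libraries that stand apart, and are descriptions.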

How the data were processed

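Poly(A) RNA of mouse hearts was sequenced from 30 strand-specific libraries, per the labels' protocols. The deposited values are read counts per gene, and the authors' processing used HISAT2 2.1.0, featureCounts and Subread 1.5.1 with GRCm38, per the submitters' processing notes. The annotation release and strand setting are not given in the sources used here. Of 55487 identifiers, 55141 were given a symbol from GENCODE M21, and the others held 0.0192% of counts. No library was a copy of another (42 pairs within groups, chi-square per degree of freedom 6.29 to 234).

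Each cohort was fitted in edgeR 4.0.16 (R 4.3.3, limma 3.58.1) with TMM normalisation, filterByExpr, 1 mean per group and the quasi-likelihood test, with Benjamini-Hochberg adjustment over all genes tested. The floxed fit held 16 libraries and 15596 genes, and the AAV9 fit 14 libraries and 15745 genes. Printed CPM levels used TMM factors over all 30 libraries. The fitting was tested on simulated data. DESeq2 1.42.0, other scaling, no filter, covariates and left-out libraries were alternatives. Leaving out the 3 libraries at odds with their Cpt1a label, and following the pathway genes over the alternatives, were chosen after seeing the data.

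The 9 genes and the lists were chosen with earlier results of these data known. Named besides the 9 were, for each list, up to 4 called genes per direction whose higher group reached 1 CPM, and the 2 most alike genes for each of the 9. Sequences are from RefSeq. MicroRNA work named in the design was not analysed here.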

Additional observations from a re-analysis of the deposited data

Results flagged for a closer look

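In 5 of 54 groups of 4 libraries, 1 library lay apart from the other 3 by Dixon's test, which sets the gap to the nearest library against the range of the group. Chance gives about 5% of such groups. Adra1b was at 26.2 CPM in KO_TAC 1 and at 8.37 to 10.1 CPM in the other KO_TAC libraries (gap over range 0.903). Grk5 was at 46.6 CPM in FF_TAC 1 and at 38.4 to 39.8 CPM in the other FF_TAC libraries (0.832). Pde3a was at 94.3 CPM in FF_sham 4 and at 73.6 to 77.1 CPM in the others (0.831). Pde4d was at 24.7 CPM in AAV_sham 1 and at 20.2 to 20.8 CPM in the others (0.857). Prkar1a was at 556.6 CPM in AAV_sham 3 and at 476.6 to 488.0 CPM in the others (0.858).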

How the results depend on the processing

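Over all alternatives, 69 gene fold changes of the 9 genes and the pathway genes were followed in 1134 other fits: 973 kept direction and side of the threshold, 137 lost the call, 22 gained one and 2 changed sign. The sign changes were Adrb1 in KO_TAC against FF_TAC among libraries low in haemoglobin (0.11) and Pde4d in AAV_sham against PBS_sham without PBS_sham 3 (0.11; -0.79 without PBS_sham 1). The cause was not tested for these or the following values.

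Counts of all genes called moved as follows. For FF_TAC against FF_sham (0 in edgeR) they were 175 in DESeq2, 27 with all 30 libraries in one fit and 0 to 27 with 1 library left out. For KO_sham against FF_sham (0) DESeq2 gave 15. For KO_TAC against KO_sham (4031) the haemoglobin term gave 273, and leaving out 1 library 1956 to 6441. For KO_TAC against FF_TAC (2235) the haemoglobin term gave 1127, low-haemoglobin libraries 0, leaving out the 3 libraries 3663, and leaving out 1 library 1124 to 3845. For the knockout interaction (7) DESeq2 gave 377, no filter 17, the replicate block 19, the Myl7 covariate 26, the haemoglobin term 0, the 3 libraries left out 825, all 30 libraries 52, and 1 library left out 0 to 215. For PBS_TAC against PBS_sham (5) the values in the order DESeq2, no filter, block, Myl7 and all 30 libraries were 370, 112, 2, 0 and 16, and 0 to 1796 with 1 library left out. For AAV_TAC against AAV_sham (1) they were 117, 29, 0, 0 and 2, and 0 to 2. For AAV_sham against PBS_sham (2) they were 385, 182, 0, 1 and 171, and 1 to 2821. For AAV_TAC against PBS_TAC (6) DESeq2 gave 37, no filter 14, all 30 libraries 0, and 1 library left out 1 to 8. For the vector interaction (1) DESeq2 gave 16, no filter 5, the block 2, Myl7 and all 30 libraries 0, and 1 library left out 0 to 1.

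Of the 9 genes, KO_TAC against KO_sham (7) had 1 with the haemoglobin term and 4 to 7 with 1 library left out. KO_TAC against FF_TAC (3) had 5 in DESeq2 and with Myl7, 0 among low-haemoglobin libraries, 2 with no filter and 2 to 6 with 1 left out. The knockout interaction (0) had 1 in DESeq2 and without the 3 libraries, and 0 to 1. PBS_TAC against PBS_sham (0) had 2 in DESeq2 and 0 to 2, and AAV_sham against PBS_sham (0) had 0 to 4. Of the pathway genes, KO_TAC against KO_sham (27) had 2 with the haemoglobin term and 15 to 37, and KO_TAC against FF_TAC (14) had 22 in DESeq2, 25 with Myl7, 32 without the 3 libraries, 0 among low-haemoglobin libraries and 8 to 29.

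Replicate numbers did not pair the libraries: deviations of same-numbered libraries correlated at -0.389 to 0.443 (floxed, 10 of 24 pairs over 0.1) and -0.463 to 0.402 (AAV9, 7 of 19), and 2 of 16 and 4 of 14 libraries correlated best with their own number. The replicate block changed no call of the 9 genes and 1 of the pathway genes, Gnaq in KO_TAC against KO_sham (0.38, adjusted p = 0.0521). A group of 3 or 4 libraries and 30 Adra1a counts in the lowest library limit the precision.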
